A study of Mus musculus with 18 samples.

Results

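The 3 mouse immunoglobulin loci encode the antibody chains: the heavy chain locus on chromosome 12, the kappa light chain locus on chromosome 6 and the lambda light chain locus on chromosome 16. They were followed here through array probes placed on the mm9 build within chr12:114400000-117300000, chr6:67500000-70700000 and chr16:19000000-19300000. A probe counted as a member when, in any group, 5 or more of its 6 arrays had the scanner software's flag for a signal well above background. This left 124 of the 271 probes that the arrays carry in the windows, with 56 in the heavy chain window, 62 in the kappa window and 6 in the lambda window, among 32726 probes kept over the whole array. By their descriptions 18 of the 124 probes read constant segments, 91 read variable segments, 2 read an immunoglobulin heavy chain transcript whose segment was not given, and 13 read other genes or transcripts without a gene name.

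An antibody chain joins a variable part, which binds the antigen, to a constant part, which sets the class. Each B cell assembles its variable exon from a choice of gene segments, and switches class by joining that exon to another heavy chain constant segment further along the chromosome, in the order Ighm, Ighd, Ighg3, Ighg1, Ighg2b, Ighg2c, Ighe and Igha in C57BL/6 mice. In the gut wall the plasma cells of the lamina propria mainly make IgA, joined by the J chain and carried across the epithelium by the receptor Pigr. Constant probes therefore read chains of a class whatever variable segment they use, while a variable probe reads only the chains that use that segment or a close relative of it. Exons were not assigned, so a given constant probe may read only some of the transcript forms of its class.

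The RNA came from cell suspensions released from the ileum by repeated incubation in a chelating buffer, a bulk preparation that can hold epithelium, intraepithelial lymphocytes and cells of the lamina propria and lymphoid follicles. The 3 groups had 6 arrays each and were labelled iPGC1afl/fl on CHOW (floxed chow), iPGC1afl/fl on HFD (floxed HFD) and iPGC1a-/- on HFD (iPGC1a-/- HFD). The mice were C57BL/6J males in which the floxed Pgc1α alleles were carried by controls and knockouts alike, and the knockouts also had Cre recombinase under the Villin promoter, which acts in intestinal epithelial cells and not in lymphocytes. They were 8 weeks old when the diets began and received chow or a milk fat diet with 42% of energy from fat and 0.2% cholesterol for 8 weeks, and the matching knockouts on chow were not analysed here. Each array was labelled as its own sample, and p-values measure the spread between these samples. In bulk RNA, fewer cells of a type and less RNA per cell cannot be told apart.

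Between 56.3% and 62.3% of non-control spots were well above background on the 18 arrays, with medians of 60.9% on floxed chow, 58.3% on floxed HFD and 58.8% on iPGC1a-/- HFD. Both Ppargc1a probes (the gene of Pgc1α) were not lower on the arrays labelled iPGC1a-/- than on floxed HFD, with log2 differences of 0.30 (limma, adjusted p = 0.573) and 0.36 (adjusted p = 0.494). Whether these probes lie in the deleted exons was not determined, so they do not check the labels. Floxed HFD replicate 5 stood apart with the highest value of its group at 17 of the 18 constant probes, and iPGC1a-/- HFD replicate 1 was the highest of its group at 14 of 18. Leaving out both arrays, a step chosen after seeing the data, gave 36 heavy chain, 45 kappa and 5 lambda probes called lower on HFD, against 35, 44 and 5 with all arrays.

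To show what the arrays read, 1 probe of 6 constant genes is printed here 5′ to 3′ in the sense of the transcript, each 60 bases long, with its mm9 position as the scanner files give it. The capitals at the end of the Ighg2c and Igkc probes mark the stop codon that closes the open reading frame, so both probes end with the last codons of the chain.
Igha, chr12:114496985-114497044, minus strand: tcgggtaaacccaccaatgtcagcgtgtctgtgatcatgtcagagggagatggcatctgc
Ighg2c, chr12:114525600-114525659, minus strand: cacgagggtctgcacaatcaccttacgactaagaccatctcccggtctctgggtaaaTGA
Ighg2b, chr12:114544738-114544797, minus strand: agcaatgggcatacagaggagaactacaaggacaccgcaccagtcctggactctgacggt
Ighm, chr12:114659630-114659689, minus strand: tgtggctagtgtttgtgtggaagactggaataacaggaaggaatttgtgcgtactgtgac
Igkc, chr6:70676692-70676751, plus strand: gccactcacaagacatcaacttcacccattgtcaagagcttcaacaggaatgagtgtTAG
Iglc1, chr16:19061905-19061964, minus strand: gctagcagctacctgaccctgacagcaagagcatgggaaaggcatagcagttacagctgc

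No constant probe shared 48 or more of its 60 bases with another immunoglobulin probe of its locus, at the best ungapped placement. Of the 91 variable probes 47 did, in 41 pairs. The pair from Igkv4-68 and Igkv4-62 shows how close they can be, with capitals at the 5 bases that differ.
Igkv4-68, chr6:69254828-69254887, minus strand: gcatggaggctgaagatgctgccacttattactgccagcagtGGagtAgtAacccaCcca
Igkv4-62, chr6:69349806-69349865, minus strand: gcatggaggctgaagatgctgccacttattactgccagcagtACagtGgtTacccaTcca
A probe of this kind may bind transcripts of its relatives, so the value of a single variable segment is uncertain and the segments do not count as independent measurements.

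On the high-fat diet the antibody transcripts were lower across all 3 loci. In floxed mice 35 of 56 heavy chain probes, 44 of 62 kappa probes and 5 of 6 lambda probes were called lower on HFD than on chow (limma, adjusted p of 0.05 or lower and a change of more than 1.5-fold), 84 of 124 in all or 67.7%, where 4.39% of all 32726 probes were called lower. None of the 124 was called higher, against 2.9% of all probes. The median log2 fold change was -0.88 in the heavy chain, -0.87 in the kappa and -2.09 in the lambda window, beside 0.001 over all probes. On 71 of the 124 probes all 6 floxed HFD arrays lay below all 6 floxed chow arrays, which held for 4.71% of all probes.

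The count of members called is shaped by how they were kept. Of the 124 probes 75 passed through floxed chow only, and a probe that is above background in 1 group only is likely to differ. With every probe of the array in the fit, 89 of the 271 window probes (32.8%) were called lower on HFD, where 2.59% of all probes were, and 226 of the 271 had a negative fold change. Among the 31 window probes well above background on all 18 arrays, 11 (35.5%) were called lower, where 3.84% of such probes were. The median log2 fold change of these 31 was -0.25. Neighbouring genes are among them: 10 of the 13 non-immunoglobulin members were above background on all 6 floxed HFD arrays. This median is therefore not that of the antibody transcripts alone.

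The size of the fold changes also depended on the background, since many of these probes sat close to it on HFD. The medians of -0.88, -0.87 and -2.09 became -2.63, -2.59 and -3.35 with background-subtracted signals, and -0.44, -0.45 and -1.50 after a normexp correction with an added offset. All stayed negative. With normexp the probes called lower were 22 in the heavy chain and 22 in the kappa window, against 35 and 44.

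**Figure D1:**
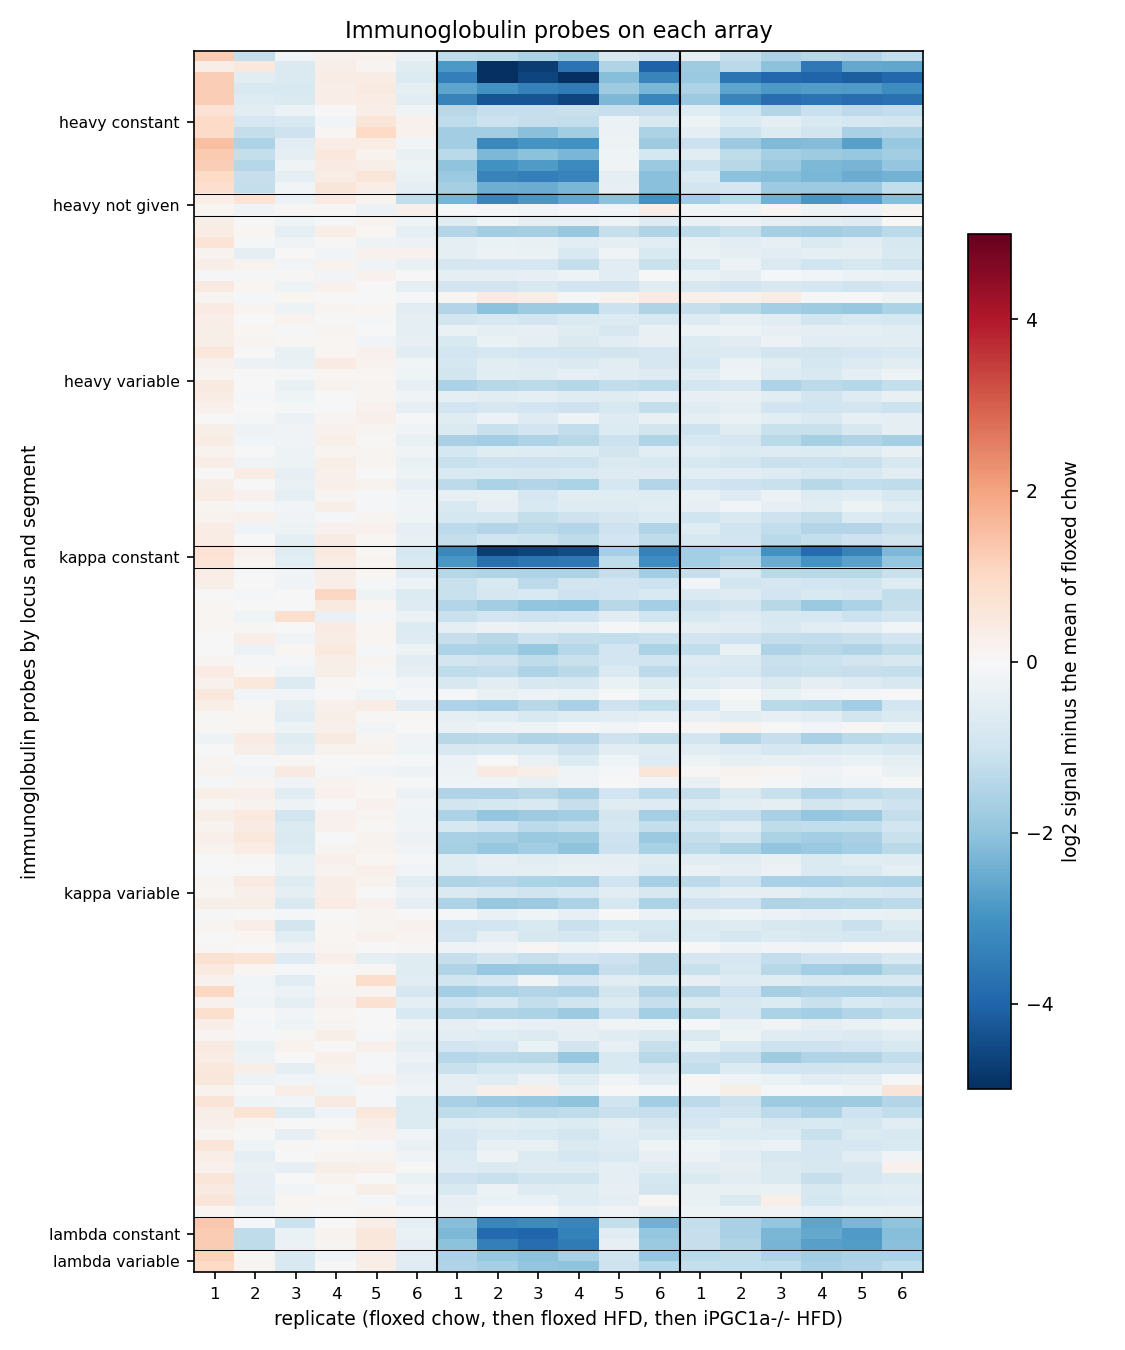
The 111 immunoglobulin probes in rows, grouped by locus and segment, on the 18 arrays in columns, coloured by the normalized log2 signal minus the mean of the 6 floxed chow arrays. Blue fills the floxed HFD and iPGC1a-/- HFD columns, darkest in the constant segments, and floxed HFD replicate 5 is paler than its neighbours.

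IgA, the antibody class that plasma cells of the gut secrete, was among the transcripts with the largest drop. The 5′ Igha probe ranged from 13.31 to 14.54 on floxed chow (median 14.24, normalized log2 signal) and from 9.04 to 12.50 on floxed HFD (median 10.16). The groups did not overlap, and floxed HFD replicate 5 was the highest of its group. The log2 fold change was -3.64 (SE 0.46, n = 6 per group, limma, adjusted p = 1.18e-05), 12.5-fold lower, and the values within the 3 slides were -3.06, -3.59 and -4.27. A probe further 3′ in the Igha gene ranged from 4.94 to 7.40 on chow (median 6.18) and from 4.28 to 5.36 on HFD (median 4.84), where 1 of 6 arrays passed the background flag. Its groups overlapped, and its log2 fold change of -1.31 (limma, adjusted p = 0.00234) was called. An Igh-VJ558 cDNA probe next to Igha, whose segment the description does not give, ranged from 6.73 to 8.61 on chow and from 4.65 to 5.93 on HFD without overlap, with a log2 fold change of -2.70 (adjusted p = 2.66e-06).

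The IgG2 classes fell too, with log2 fold changes of -2.77 to -3.92. The 3′ Ighg2c probe ranged from 9.61 to 11.58 on chow (median 10.26) and from 5.23 to 8.22 on HFD (median 6.35), and was well above background on all arrays of both groups. Its log2 fold change was -3.92 (SE 0.48, limma, adjusted p = 8.02e-06), the largest of the 124 probes, and the Ighg2c probe printed above gave -2.77 (adjusted p = 9.92e-06). The Ighg2b probe ranged from 8.92 to 10.89 on chow (median 9.54) and from 5.05 to 7.41 on HFD (median 5.84), with a log2 fold change of -3.68 (SE 0.41, adjusted p = 3.29e-06). Neither gene had an HFD array inside its chow range.

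The other IgG classes were lower on HFD with smaller changes. Ighg1 ranged from 5.31 to 6.59 on chow (median 5.75), with a log2 fold change of -1.195 (limma, adjusted p = 3.79e-05). It was not well above background on any HFD array of either genotype, so chow was at least 1.99-fold higher than floxed HFD. For this bound, which was not itself tested, the bright mean was set against the higher of each dim array's detection floor and its own signal. The Ighg3 probes overlapped between the diets. The 5′ Ighg3 probe ranged from 5.35 to 7.53 on chow (median 6.70) and from 4.47 to 6.24 on HFD (median 4.83), and its log2 fold change was -1.53 (adjusted p = 0.00353). The second Ighg3 probe, whose mapped interval is longer than the probe, gave -0.98 (adjusted p = 0.00776). An Ighe probe, for the IgE class, was above background on no floxed chow, floxed HFD or iPGC1a-/- HFD array and is not among the 124, and a further Ighg2c probe was above background on 4 of 6 chow arrays and did not pass either.

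Ighm and Ighd, the classes that B cells carry before they switch, also fell, but the diets overlapped at all 5 of their probes. The middle Ighm probe ranged from 9.43 to 11.56 on chow (median 10.61) and from 7.18 to 10.13 on HFD (median 7.89). Floxed HFD replicate 5 lay inside the chow range here, and chow replicate 2 was the lowest on chow although it had the highest Igha value. The log2 fold change was -2.41 (SE 0.45, limma, adjusted p = 0.00062). The 5′ and 3′ Ighm probes gave -1.89 (adjusted p = 0.000472) and -2.18 (adjusted p = 0.00121). The 3′ Ighd probe ranged from 6.72 to 9.77 on chow (median 8.38) and from 5.04 to 8.02 on HFD (median 5.90), with a log2 fold change of -2.16 (adjusted p = 0.00232), and the 5′ Ighd probe gave -1.51 (adjusted p = 0.00696).

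Both light chain types fell. The 3′ Igkc probe ranged from 11.65 to 13.11 on chow (median 12.53) and from 8.65 to 11.14 on HFD (median 9.07), with a log2 fold change of -3.03 (SE 0.36, limma, adjusted p = 6.01e-06), and the Igkc probe at the stop codon ranged from 10.91 to 12.50 on chow and from 7.06 to 10.11 on HFD, with -3.68 (adjusted p = 1.25e-05). Neither overlapped. For lambda, Iglc1 ranged from 7.59 to 10.02 on chow (median 8.62) and from 5.36 to 7.47 on HFD (median 5.90), without overlap, and its log2 fold change was -2.57 (SE 0.37, adjusted p = 4.14e-05). The Iglc3 probes, which overlap each other in sequence, gave -2.66 (adjusted p = 0.000561) and -2.51 (adjusted p = 0.000959), with floxed HFD replicate 5 inside the chow range. All 18 constant probes were thus called lower, beside 4.39% of all probes. In 8 of the 18 the diets did not overlap, where all HFD arrays lay below all chow arrays at 4.71% of all probes.

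**Figure D2:**
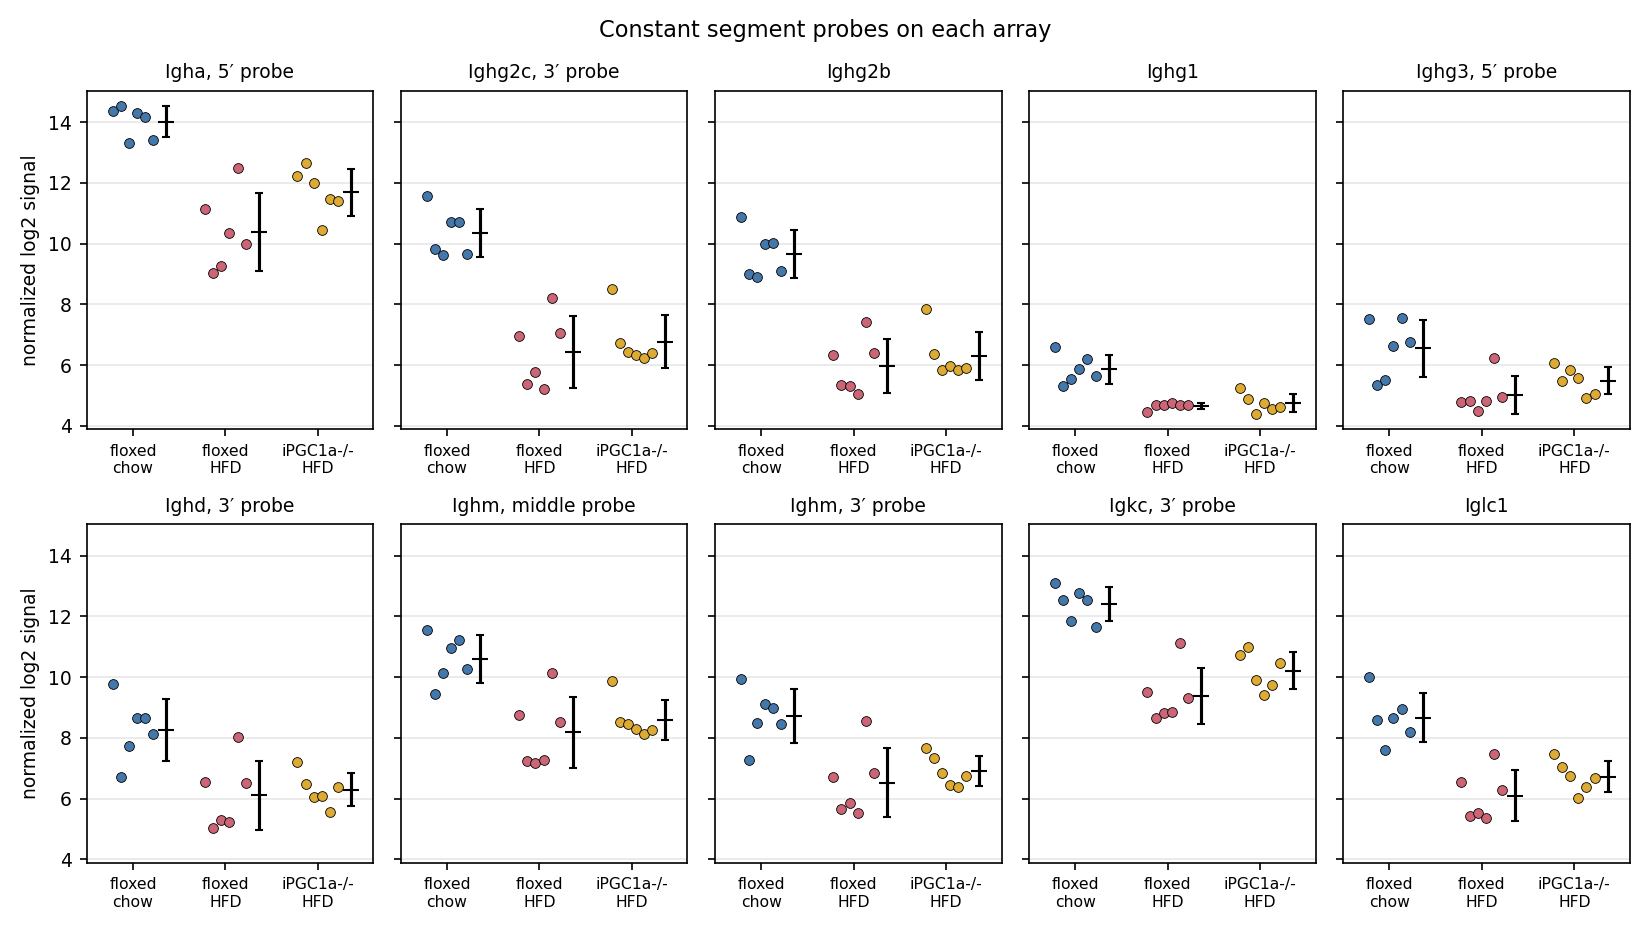
Normalized log2 signal of 10 constant segment probes on the 18 arrays, 1 point per array, with the group mean and its SD as the bar to the right of each group. For Igha, Ighg2c, Ighg2b, Igkc and Iglc1 all floxed HFD points lie below all floxed chow points, while Ighd, Ighm and Ighg3 overlap through floxed HFD replicate 5.

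How far the classes fell relative to each other was described by the difference between 2 probes within each array, for pairs chosen after seeing the data and therefore without a test. From floxed chow to floxed HFD the 5′ Igha minus middle Ighm difference moved by -1.23 on the log2 scale (SD over the 6 arrays 0.84 on chow and 0.56 on HFD). The 3′ Ighg2c minus Ighm difference moved by -1.50 (SD 0.38 and 0.26) and the Ighg2b minus Ighm difference by -1.27 (SD 0.33 and 0.33). The order for Igha differed by probe, since its 3′ probe, above background on 1 of 6 HFD arrays, changed by -1.31 and the 3 Ighm probes by -1.89 to -2.41. The 5′ and 3′ Igha probes are annotated to different transcripts and had mean log2 signals of 14.02 and 6.15 on floxed chow. They may therefore read different transcript forms, and these differences compare probes and not whole classes. The 3′ Igkc minus Iglc1 difference moved by -0.46, and by 0.17 with background-subtracted signals.

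Variable segments, which carry the antigen-binding part, were lower on HFD at most probes. Of 91 variable probes 64 were called lower and none higher, beside 4.39% and 2.9% of all probes. Their median log2 fold change was -0.83, with a range of -1.71 to 0.23. The 18 constant probes had a median of -2.46, a difference that was not tested. Of the variable probes 70 passed through floxed chow only, and 36 were above background on no floxed HFD array. For these 36 chow was at least 1.1 to 1.98-fold higher by the same bound on the observed means. Among the 21 that were also above background on HFD in either genotype, 9 were called lower, with a median of -0.46.

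Variable segments end in a stretch that codes for a conserved tyrosine and cysteine, next to the join with the following segment. The letters TATTNCTG, searched on both strands and chosen after seeing the probes, occurred in 29 of 91 variable probes (31.9%), all in the sense of the transcript, in 0 of 18 constant probes and in 1.57% of all 56605 non-control probes. They are in capitals in a probe of each locus printed here from among those named below, and in the LOC102642252 probe, whose description names no immunoglobulin gene. A match describes the letters of a probe and says nothing of its signal.
Ighv14-3, chr12:115298056-115298115, minus strand: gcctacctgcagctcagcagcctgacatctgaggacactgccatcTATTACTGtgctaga
LOC102642252, chr12:116861356-116861415, minus strand: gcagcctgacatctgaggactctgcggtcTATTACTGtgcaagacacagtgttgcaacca
Igkv1-122, chr6:67967417-67967476, plus strand: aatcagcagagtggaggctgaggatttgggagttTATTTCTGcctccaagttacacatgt
Iglv1, chr16:19085111-19085170, minus strand: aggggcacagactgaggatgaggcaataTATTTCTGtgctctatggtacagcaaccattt

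In the heavy chain locus 20 of 30 variable probes were called lower, beside 4.39% of all probes. Of these 20, 19 were among the 24 of the Ighv1 family. The filter shapes these counts: 27 of the 30 passed through floxed chow only. At 15 of the 24 Ighv1 probes no floxed HFD array was above background. LOC102642252 ranged from 6.93 to 8.04 on chow (median 7.74) and from 4.74 to 6.01 on HFD (median 5.11), without overlap, and its log2 fold change was -2.45 (SE 0.24, limma, adjusted p = 7.09e-07). Of the named segments Ighv1-7 had the largest change, ranging from 6.23 to 7.19 on chow and from 4.70 to 5.69 on HFD, with a log2 fold change of -1.61 (adjusted p = 1.34e-06), followed by Ighv14-3 at -1.57. Ighv1-64, Ighv1-77, Ighv1-52 and Ighv1-85 followed at -1.49, -1.38, -1.38 and -1.35, and were well above background on 1 or 2 of the 6 floxed HFD arrays. Ighv1-33 and Ighv1-55 were above background on no floxed HFD array. By the same bound on the observed means chow was at least 1.97-fold and 1.67-fold higher. None of these overlapped between the diets, beside 4.71% of all probes with every HFD array below every chow array. They were picked by the size of their change and mostly kept through floxed chow only, so this is a description. Ighv10-3, above background on all arrays of both diets, had a value of 0.23 (adjusted p = 0.132).

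In the kappa locus 42 of 59 variable probes were called lower, where 4.39% of all probes were. The counts by family were 13 of 22 in Igkv4, 4 of 7 in Igkv3, 5 of 6 in Igkv1, 6 of 6 in Igkv6, 2 of 4 in Igkv8, 3 of 3 in Igkv12 and 3 of 3 in Igkv5. Because 41 of the 59 probes passed through floxed chow only, these counts partly follow the filter and do not rank the families. In Igkv6, for example, 5 of 6 probes were above background on no floxed HFD array. Igkv1-122 ranged from 5.87 to 7.03 on chow (median 6.58) and from 4.53 to 5.14 on HFD (median 4.81), without overlap, and its log2 fold change was -1.71 (SE 0.17, limma, adjusted p = 7.56e-07). Igkv6-17, Igkv4-60, Igkv4-62, Igkv4-68, Igkv12-46, Igkv4-55, Igkv12-41, Igkv14-111 and Igkv1-133 followed, with log2 fold changes from -1.68 to -1.48, all without overlap. Since they were picked by the size of their change, the lack of overlap is a description, to be read beside 4.71% of all probes. These values are set against a group close to background: Igkv1-122 was above it on 2 of 6 floxed HFD arrays, and the others on 1 to 4 of 6. At Igkv4-68 the highest HFD value, 5.73 in replicate 5, lay just under the lowest chow value, 5.74. The 2 probes of Igkv4-72 gave 0.14 (adjusted p = 0.55) and -0.19 (adjusted p = 0.128), both above background on all 6 arrays of each diet.

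The lambda locus, which is small in mice, had 2 variable members, both read as Iglv1 and both called lower, beside 4.39% of all probes. The probe printed above ranged from 5.68 to 7.41 on chow (median 6.49) and from 4.43 to 5.41 on HFD (median 4.87), with a log2 fold change of -1.59 (limma, adjusted p = 3.17e-05). The second, from a small intestine cDNA and mapped to an interval far longer than the probe, from position 19063348 to 19085165, gave -1.67 (adjusted p = 3.21e-05). Both probes were above background on 1 of 6 floxed HFD arrays, so the sizes of these changes are set by a group close to background.

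**Figure D3:**
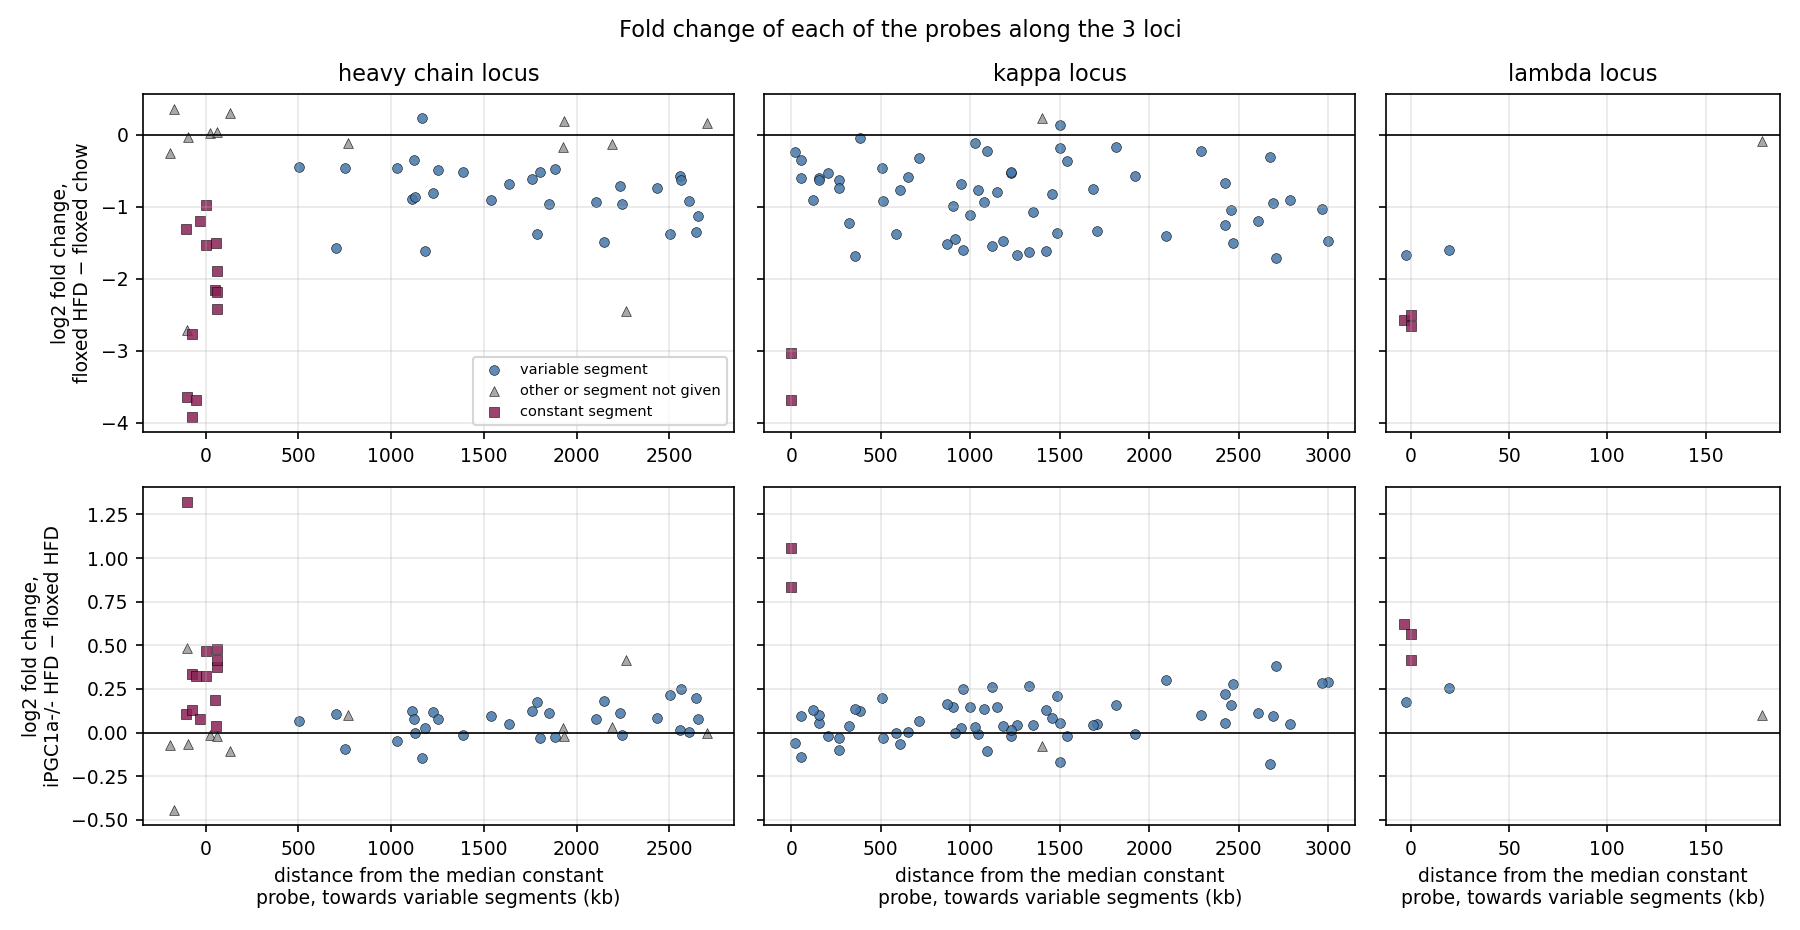
Log2 fold change of each of the 124 probes for diet (upper row) and genotype (lower row) against the distance in kb from the median constant probe of its locus, counted towards the variable segments. Squares are constant segments, circles variable segments and triangles other or unassigned transcripts, and in the diet row the constant segments reach -3.92 while the variable segments lie between -1.71 and 0.23.

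Of the 13 probes of other genes or of transcripts without a gene name, only LOC102642252 was called. Its probe carries the TATTNCTG letters printed above and may read a variable segment, so it is not taken as a neighbouring gene. The 8 probes of other named genes, among them Tmem121, Adam6b, Zfp386 and Rprl1, had log2 fold changes between -0.25 and 0.36 for diet, and Zfp386, at the far end of the heavy chain window, gave 0.16 (limma, adjusted p = 0.243). A second Igh-VJ558 probe was at -0.03 (adjusted p = 0.882).

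The number of immunoglobulin probes well above background separated the diets by array. Of 111 immunoglobulin members 102 to 111 were above background on the floxed chow arrays (median 109), 25 to 70 on floxed HFD (median 37.5) and 39 to 66 on iPGC1a-/- HFD (median 52). The chow arrays were the ones that chose most members, so this is a description.

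**Figure D4:**
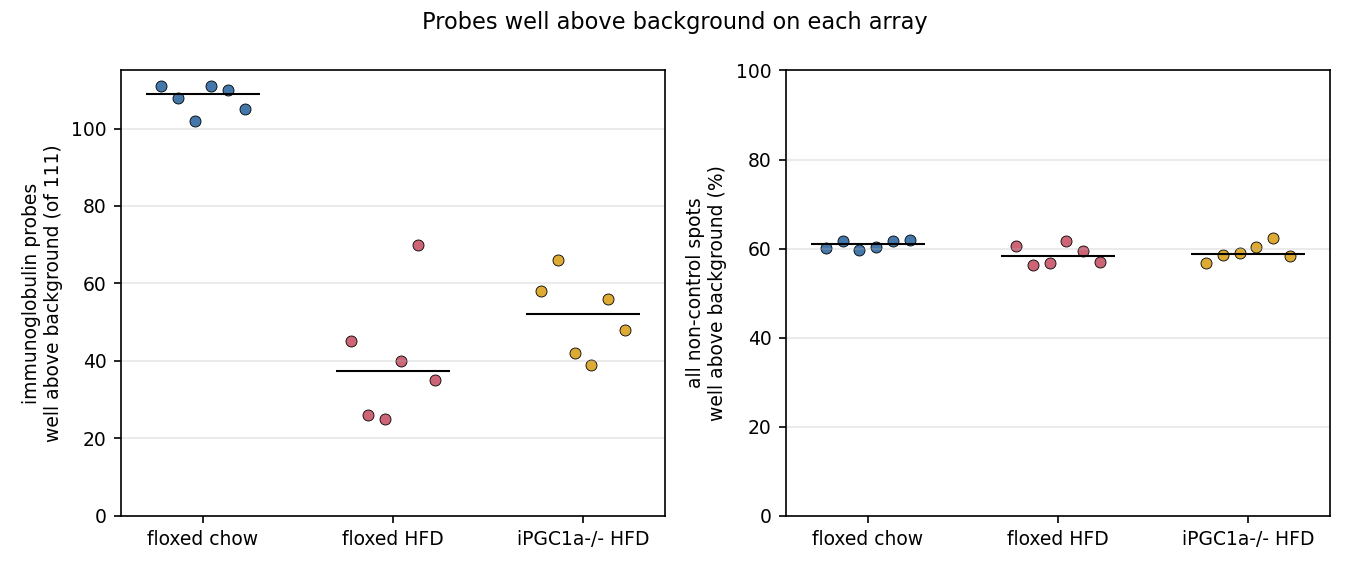
Number of the 111 immunoglobulin members well above background on each array (left) and percentage of all non-control spots well above background (right), with a line at the group median. The immunoglobulin count was 102 or more on floxed chow and 70 or less on HFD, while the share of all spots was 56.3% to 62.3%.

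Loss of Pgc1α in the epithelium was compared on the high-fat diet, with the same floxed HFD arrays as reference that entered the diet comparison. None of the 124 probes was called between iPGC1a-/- HFD and floxed HFD (limma), where 0.119% of all probes were called. At an unadjusted p of 0.05 or lower there were 6 of 124, against 9.61% of all probes, and 0 members were called under every alternative run. Median log2 differences were 0.08 in the heavy chain, 0.06 in the kappa and 0.34 in the lambda window, and 91 of 124 probes were positive. The medians depended on single arrays: they were 0.11, 0.13 and 0.62 without floxed HFD replicate 5, the heavy chain median was 0.04 without iPGC1a-/- HFD replicate 1 and 0.05 without floxed HFD replicate 4, the kappa median was 0.11 without iPGC1a-/- HFD replicate 4, and the lambda median was 0.17 without floxed HFD replicate 3 and 0.21 without replicate 4.

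The largest genotype differences were at Igha and Igkc, the transcripts for the IgA heavy chain and the kappa chain. The 5′ Igha probe ranged from 10.44 to 12.65 on iPGC1a-/- HFD (median 11.73), overlapping floxed HFD, with a log2 difference of 1.32 (95% confidence interval 0.36 to 2.28, limma, adjusted p = 0.394). It was 1.29, 0.72 and 1.95 within the 3 slides, and 1.66 (adjusted p = 0.0951) without floxed HFD replicate 5 and iPGC1a-/- HFD replicate 1. Its highest value on iPGC1a-/- HFD lay below its lowest on floxed chow, 13.31. The Igkc probes differed by 1.06 (interval 0.08 to 2.04, adjusted p = 0.495) and 0.84 (interval 0.08 to 1.59, adjusted p = 0.486).

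The other constant probes had log2 genotype differences of 0.04 to 0.62, all positive and none called, with overlapping groups throughout. The interval was -0.66 to 1.34 for the 3′ Ighg2c probe and -0.53 to 1.36 for the middle Ighm probe, so differences of more than 2-fold in size were within it on the upper side. For variable segments the median genotype difference was 0.08, within -0.18 to 0.38.

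Genes that B cells and plasma cells use to make and move antibodies were set beside the loci. In all lists a gene with several probes was read only at the probe with the highest mean signal. The shares of all probes given beside list counts are per probe and were not selected in this way. Over all probes 4.39% were called lower on HFD and 2.9% higher. Of the plasma cell list 7 of 12 measured genes were called lower and none higher, with a median log2 fold change of -0.76. Jchain, which links IgA into dimers, ranged from 8.67 to 10.15 on chow and from 5.28 to 8.04 on HFD without overlap, and changed by -3.23 (SE 0.39, limma, adjusted p = 6.47e-06). Mzb1, an endoplasmic reticulum protein of antibody-secreting cells, changed by -1.68 (adjusted p = 6.12e-05). Xbp1, a secretory factor that the epithelium also uses, changed by -0.34 (adjusted p = 0.0252), under the fold required. Of the B cell list 10 of 15 were called lower, with a median of -0.85, led by Cd79b at -2.60 (adjusted p = 0.0011). Cd79a was at -0.47 (adjusted p = 0.0112), not called.

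For lists of genes linked to rearranging or switching the loci the counts were smaller, to be read beside the 4.39% of all probes called lower. Of 15 class switching and help genes 3 were lower, with Tnfrsf13c, the BAFF receptor, at -1.55 (limma, adjusted p = 0.00235). Of 10 genes of the recombination list 1 was lower, Vpreb3 at -1.68 (limma, adjusted p = 0.000703), a B cell gene that does not itself rearrange DNA. Of 9 genes of IgA transport and homing 4 were lower, led by Itgb7, a gut homing integrin, at -1.71 (adjusted p = 7.95e-06), while Pigr was at -0.19 (adjusted p = 0.174). In the genotype comparison no gene of any list was called, and Jchain differed by 0.95 (adjusted p = 0.459).

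Markers of other cells differed in how many were called lower, beside 4.39% of all probes. Of 15 T cell and intraepithelial lymphocyte genes 13 were called lower on HFD and 1 higher, with a median of -1.67. Cd6 led at -2.61 (limma, adjusted p = 3.44e-06), and Cd3e was at -0.66 (adjusted p = 0.00543). Cd4 was the gene called higher, at 0.62, read at the brighter of its 2 kept probes, and its other probe is not reported here. Of 10 macrophage and dendritic cell genes 2 were lower, led by Cd14 at -1.29, and of 8 stromal and endothelial genes 1, Vim at -0.98. None of 11 epithelial genes was called, with a median of -0.06 and Epcam at -0.06 (adjusted p = 0.721), and 3 of 6 ileal enterocyte genes were lower, led by the bile acid transporter Slc10a2 at -1.07, with Fabp6 at -0.11. The summed linear signal of the B cell list ranged from 6740 to 11700 on floxed chow, 6100 to 7570 on floxed HFD and 5380 to 7230 on iPGC1a-/- HFD. That of the plasma cell list ranged from 40600 to 53300, 32000 to 41400 and 32700 to 44400, and that of the T cell list from 25600 to 60900, 18800 to 27100 and 22700 to 35700. A few bright genes that were not called for diet carry most of the B and plasma cell sums, Cd37 (mean 12.41 on chow and 12.27 on floxed HFD, log2 signal) in the first, and Xbp1 (13.88 and 13.54), Eaf2 (13.85 and 13.71) and Creld2 (13.50 and 13.04) in the second. In the T cell list the brightest genes were Gzma (14.38 and 12.21) and Cd4 (13.09 and 13.72), which moved in opposite directions. Jchain was well above background on all 18 arrays. The part of these cells in the drop of the immunoglobulin probes was not tested.

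**Figure D5:**
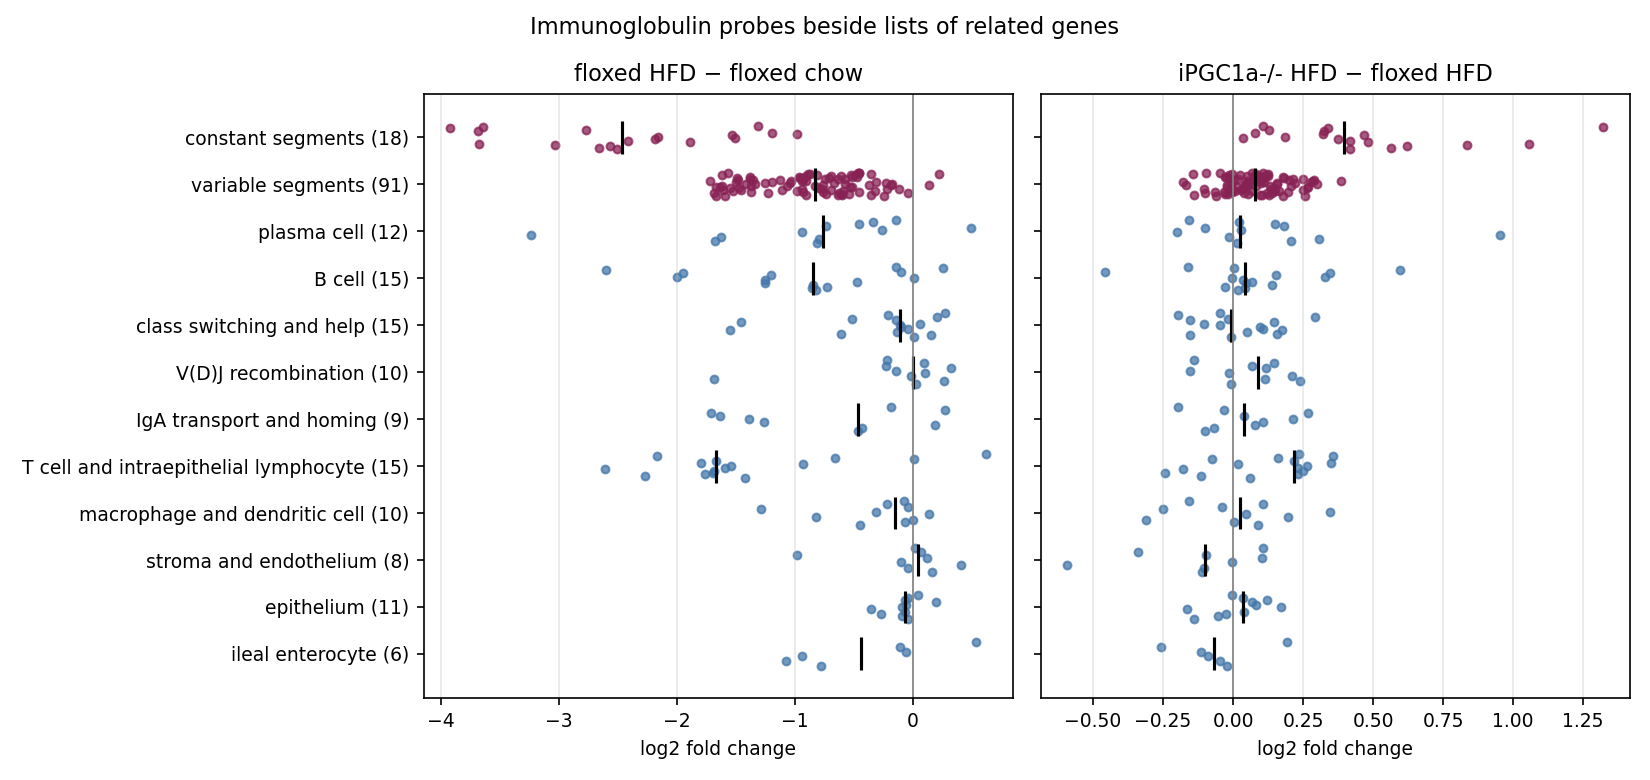
Log2 fold change of the constant and variable segment probes and of each measured gene of the 10 lists, for diet (left) and genotype (right), with a line at each median and the number of probes or genes in brackets. The diet medians are -2.46 for constant segments, -0.83 for variable segments, -0.76 for plasma cell genes, -1.67 for T cell genes and -0.06 for epithelial genes.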

How the data were processed

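Total RNA of ileal cell suspensions was labelled with Cy3 and hybridised to 1-colour Agilent mouse arrays, 18 arrays on 3 slides with 2 arrays of every group on each. The authors' scanner files, made with Feature Extraction 10.10.1.1, hold linear spot intensities, of which the deposited median intensity was used. The authors' value table, used as an alternative, holds log2 values that the authors normalized. It lists 120 of the 124 probes, with column medians of 7.44. Its values followed the log2 values used here with a correlation that rounds to 1 on every array, so direction is shared, while a correlation does not compare scales.

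Outlier spots were removed, spots of a probe were averaged, and log2 values were smoothed by a reimplementation of qsmooth (window 0.05). Of 56605 non-control probes 32726 were kept. A single limma model (3.58.1, R 4.3.3) of 3 groups gave the diet and genotype comparisons, with Benjamini-Hochberg adjustment over all probes kept; a probe was called when its adjusted p was at most 0.05 and its change exceeded 1.5-fold. The steps were tested on simulated data. Corrections for laboratory batches that the study applied were not repeated. The number of arrays limits the precision.

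Segments and symbols were read from the probe descriptions, and 205 of 206 immunoglobulin symbols are in the RefSeq gene table, which was used for names only; exons were not assigned, as no annotation of mm9 was used here. Probe sequences come from the scanner files. Named were all constant probes, up to 10 further called probes per locus by size, the leading called gene of each list and 9 set genes, of which 1 is not reported here. Segments named beyond that (Ighv10-3, Igkv4-72, Zfp386, the other genes of the windows, and genes named for the summed signal) were chosen after their values were seen. The members and lists were chosen with earlier results of these data known.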

Additional observations from a re-analysis of the deposited data

Results flagged for a closer look

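Of 129 groups of 6 values examined, 14 had a highest or lowest array far from the rest (gap to the nearest array over the group's range above Dixon's 95% critical value). Chance would give about 1 in 20 if the groups were independent. They are not, since the probes share the same arrays and the locus means reuse them, so the count cannot be judged against that rate. Floxed HFD replicate 5 was the highest of its group at 5′ Ighg3 (6.244 log2 signal, next array 4.954), LOC102642252 (6.007, next 5.13), Igkv4-68 (5.735, next 5.055), Igkv4-62 (5.569, next 4.954), Igkv4-55 (5.569, next 4.91) and 3′ Igkc (11.14, next 9.513), and in the mean of the kappa immunoglobulin members (5.486, next 5.187). The Igkv4-68 and Igkv4-62 probes share 55 of 60 bases and do not count separately.

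The array iPGC1a-/- HFD replicate 1 was the highest of its group at the 3′ Igha probe (5.689, next 5.006), both Ighg2c probes (8.501, next 6.713, and 6.882, next 5.785), Ighg2b (7.855, next 6.351) and middle Ighm (9.884, next 8.527). Replicate 2 of that group was the highest at Igkv14-111 (5.9, next 5.056). Floxed HFD replicate 1 was the lowest at Ighg1 (4.455, next 4.69), where no floxed HFD array was above background.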

How the results depend on the processing

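Every diet median stayed negative and no member was called for genotype under any alternative. With background-subtracted signals scaled to the 75th percentile, the diet medians were -2.629 (heavy), -2.59 (kappa) and -3.345 (lambda), and the genotype medians 0.2807 (kappa) and 0.9226 (lambda). With normexp the diet counts were 22 (heavy) and 22 (kappa), and the medians -0.4401, -0.452 and -1.495. With probes above background on all 18 arrays the counts were 6, 4 and 1, and the medians -0.2172, -0.3738 and -1.336, with fewer probes tested. Leaving out 1 array at a time, called probes ranged from 34 to 37 (heavy), 39 to 47 (kappa) and 5 to 5 (lambda), and medians from -0.94 to -0.78, -0.90 to -0.80 and -2.34 to -1.85, and genotype medians from 0.04 to 0.11, 0.05 to 0.13 and 0.17 to 0.62. The genotype difference of the 3′ Igha probe turned to -0.04003 without iPGC1a-/- HFD replicate 1 and to -0.001158 without floxed HFD replicate 4. Ighv1-55 fell below the fold required with normexp (-0.49). The cause was not tested. The arrays were not treated as paired, since correlations of same-numbered arrays ran from -0.131 to 0.284 for diet and from -0.188 to 0.332 for genotype and not all exceeded 0.1. For diet 4 of 6 numbers, and for genotype 3 of 6, correlated best with their own, so pairing stays undecided. With the replicate block 35, 44 and 5 probes were called for diet and 0 for genotype. Probes close to background carry little more than a bound on HFD.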
